A study of Mus musculus with 3 samples.

Results

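Conventional type 1 dendritic cells (cDC1) were followed in subcutaneous implants of a mouse model of heterotopic ossification, the formation of cartilage and bone outside the skeleton. The cells were chosen by transcripts detected in single droplets. A cell was kept when it held 200 to 6000 genes, at most 5% of its unique molecular identifiers (UMIs, the tags that count single RNA molecules) from mitochondrial genes and under 1% from the 5 connective tissue genes Col1a1, Col1a2, Col3a1, Dcn and Lum, and when it showed a UMI of at least 2 of Xcr1, Clec9a, Itgae, Wdfy4 and Flt3, with Xcr1 or Clec9a among them. This rule found 265 of the 21503 cells that passed the limits on genes and mitochondrial UMIs. They comprised 138 of 8728 cells in Matrigel-only, 37 of 5478 in Vehicle and 90 of 7297 in Palo. All mice were female CD-1, an outbred stock, and 6 to 8 weeks old, and the masses were taken on day 5. Matrigel-only mice received Matrigel, a basement membrane gel, without rhBMP2 (recombinant human bone morphogenetic protein 2) and no agent by mouth. Vehicle mice received rhBMP2 in Matrigel and corn oil/DMSO by mouth. Palo mice received rhBMP2 in Matrigel and Palovarotene, an agonist of the retinoic acid receptor gamma, at 4 mg/kg each day. Matrigel-only therefore differed from Vehicle in both the growth factor and the gavage. Each condition was 1 library of cells from pooled masses, so differences between conditions lack replicates, no p-value is given, and an effect of a condition cannot be told apart from an effect of its library or of the mice pooled in it.

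The type 1 dendritic cell is the dendritic cell specialised in taking up dying cells and displaying their proteins on MHC class I to CD8 T cells, a process called cross-presentation. It forms from bone marrow precursors under the growth factor receptor Flt3 and depends on the transcription factors Irf8, Batf3 and Id2. In tissues such as skin it carries the integrin chain encoded by Itgae (CD103), and its chemokine receptor Xcr1 detects Xcl1, which natural killer and activated T cells release. After activation it gains Ccr7 and leaves for the draining lymph node.

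The genes behind the rule lie on separate chromosomes of the mouse (mm10 build, GENCODE vM21 annotation). Xcr1 spans chr9:123852315-123862029 on the minus strand, Clec9a chr6:129408862-129424763 on the plus strand, Itgae chr11:73090583-73147446 on the plus strand, Wdfy4 chr14:32959547-33185508 on the minus strand and Flt3 chr5:147330741-147400489 on the minus strand. Promoters of 300 bases (250 before to 50 after a start site, RefSeq, GRCm38.p6) were at hand for 19 of the 26 genes formed by the 5 rule genes, the 20 leading genes named further on and Plet1. As background, Irf8 binds with BATF proteins at a composite of an AP-1 and an interferon-type element. Those letters (GAAA directly followed by the AP-1 letters TGANTCA, where N is any base, on either strand) occurred at 0.141% of genes and, among the 19, at Cd207 alone. The interferon-type core, GAAA, then NN, then GAAA, stood at 3.99% of all 27025 genes with a promoter in the table and at 4 of the 19, namely Ece1, Tlr11, Ifi205 and Rnase6. TGANTCA was found at 8.97% of genes, Cd207 and Plet1 among them. The ETS-IRF letters, GGAA, then NN, then GAAA, were found at 3.16% of genes and at none of the 19. The searched letters were chosen after the leading genes were known, and a match is a description of the sequence only. Cd207 and Tlr11 are shown as leading genes of the cells, Ifi205 for its pair of matches, and Plet1 as the gene with the largest ratio between libraries. The capitals mark the matches, each sequence reads 5′ to 3′ on the strand of its gene, and the regions are chr6:83677808-83678107 for Cd207, chr14:50357664-50357963 for Tlr11, chr1:174031706-174032005 for Ifi205 and chr9:50494275-50494574 for Plet1.
Cd207: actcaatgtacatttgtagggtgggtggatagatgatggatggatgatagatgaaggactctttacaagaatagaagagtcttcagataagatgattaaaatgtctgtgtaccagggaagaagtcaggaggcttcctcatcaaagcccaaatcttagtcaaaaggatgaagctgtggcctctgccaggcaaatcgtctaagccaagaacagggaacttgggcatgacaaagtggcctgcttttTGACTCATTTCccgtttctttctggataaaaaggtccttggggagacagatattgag
Tlr11: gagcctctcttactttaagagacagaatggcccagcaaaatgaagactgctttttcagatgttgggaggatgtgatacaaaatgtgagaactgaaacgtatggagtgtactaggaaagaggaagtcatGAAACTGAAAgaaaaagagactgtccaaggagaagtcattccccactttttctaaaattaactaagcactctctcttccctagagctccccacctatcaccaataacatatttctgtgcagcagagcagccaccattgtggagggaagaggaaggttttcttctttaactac
Ifi205: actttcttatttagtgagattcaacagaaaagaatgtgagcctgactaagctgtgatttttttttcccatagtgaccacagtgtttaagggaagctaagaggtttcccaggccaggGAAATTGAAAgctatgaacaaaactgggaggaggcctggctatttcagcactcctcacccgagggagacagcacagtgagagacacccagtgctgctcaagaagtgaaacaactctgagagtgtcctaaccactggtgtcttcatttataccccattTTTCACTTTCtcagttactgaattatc
Plet1: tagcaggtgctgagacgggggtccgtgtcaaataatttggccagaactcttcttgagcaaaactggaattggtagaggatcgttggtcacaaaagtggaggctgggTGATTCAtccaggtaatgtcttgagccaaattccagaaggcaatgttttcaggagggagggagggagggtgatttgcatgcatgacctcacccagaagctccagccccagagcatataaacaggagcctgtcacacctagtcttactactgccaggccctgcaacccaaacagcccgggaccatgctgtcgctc
In Cd207 the match begins 7 bases before the start site and runs across it. The match of Tlr11 begins 122 bases before the start, and that of Plet1 144 bases before it.

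The 3 libraries differed in depth. They held 44252421 UMIs over 9249 barcodes in Matrigel-only, 46317250 over 6065 in Vehicle and 46901673 over 7905 in Palo. The median type 1 dendritic cell held 4157, 7618 and 5288.5 UMIs in the 3 libraries, in the same order. Summed over the cells, this gave 606423, 275145 and 495511 UMIs, so that 3 UMIs, drawn as the limit for lower counts in the plot of levels, equal 4.95, 10.9 and 6.05 CPM (counts per 1000000 UMIs of these cells). Values below are CPM of these summed UMIs with exact Poisson 95% intervals, or shares of cells with exact Clopper-Pearson 95% intervals. The intervals cover counting error alone and not the spread between mice. Levels are compared for the same gene between samples or cells, and the most abundant gene of a list is named by its count of 3′ tags alone. Libraries shared 19 cell barcodes (Matrigel-only and Vehicle), 21 (Matrigel-only and Palo) and 11 (Vehicle and Palo), and none of the shared ones was a type 1 dendritic cell.

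The name of the cells was checked against genes that the rule did not use. Of 24 further genes of type 1 dendritic cells found in the files, 23 were detected in Matrigel-only and all 24 in the other libraries, and their sum made up 1.36%, 1.23% and 1.26% of UMIs in Matrigel-only, Vehicle and Palo. Irf8, the factor that fixes this lineage, was at 2972 CPM in the Matrigel-only library, 3049 in Vehicle and 2953 in Palo, against 170, 228 and 193 CPM in the other non-stromal cells. Cadm1, an adhesion molecule of these cells, stood at 280, 196 and 226 CPM against 17.8, 29.4 and 22.0. Zbtb46, a factor of conventional dendritic cells, was at 102, 80.0 and 92.8 CPM against 2.68, 2.88 and 2.29. These levels differ from those of the other cells by far more than counting error. The genes that define T and NK cells, Cd3e, Trbc2, Nkg7 and Ncr1, were at 0 UMIs in the type 1 dendritic cells of every library, and of 20 T and NK genes 15, 16 and 16 were at 0. Klrk1 was the most abundant of that list (51.1, 69.1 and 62.6 CPM), and the list as a whole made up 0.00709%, 0.00872% and 0.00686% of UMIs. In the B cell list Cd79a, Ms4a1 and Pax5 were at 0, whereas Ighm was at 229, 153 and 180 CPM.

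Other cell types were present at a low level. The list of 20 macrophage and monocyte genes summed to 0.573%, 0.405% and 0.494% of UMIs, led by Lyz2 in Matrigel-only and Palo and by Apoe in Vehicle. At least 3 UMIs of C1qa, C1qb, C1qc, Apoe and Ms4a7 together occurred in 9 of 138, 6 of 37 and 12 of 90 cells. At least 3 of 6 plasmacytoid dendritic genes (Siglech, Klk1, Cox6a2, Ccr9, Spib and Ly6d) occurred in 2, 3 and 0 cells. All 5 of those carried Clec9a, which plasmacytoid cells of mice also express, and none carried Xcr1. The neutrophil list gave 1, 2 and 97 UMIs, in 1, 1 and 3 cells, and 1 cell of Palo held all 39 UMIs of S100a8 and all those of S100a9. Together these made 11, 9 and 13 cells with genes of other cell types, here called mixed cells, and left 127, 28 and 77 without them. The mixed cells were defined after the values were seen, and values without them are given beside the results that they move most.

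With the libraries pooled, the rule sorted cells with a clear edge on 1 side. With Xcr1 or Clec9a as the sole marker, 25 cells fell just outside. Their macrophage list stood at 39793 CPM and the cDC1 genes outside the rule at 1952 CPM. Just inside, the 30 cells with exactly 2 markers held 13143 and 8107 CPM of the same lists, and their Irf8 was at 2213 CPM against 173 CPM in those just outside. The edge was less clear in Vehicle, where the 4 cells just inside held 16520 and 3278 CPM of the lists. The 6 just outside held 29962 and 1692 CPM there. Irf8, itself a gene of the cDC1 list, was at 2622 CPM inside against 141 CPM outside, and so made up most of that list inside. Naaa and Batf3, of the same list, went the other way, at 65.6 and 65.6 CPM inside against 564 and 211 CPM outside. A further 75 cells had 2 or more of Itgae, Wdfy4 and Flt3 but neither Xcr1 nor Clec9a, with Irf8 at 579 CPM. By library their Irf8 was at 1169, 484 and 491 CPM in Matrigel-only, Vehicle and Palo. Most cells lay well inside, since 4 or 5 markers were detected in 93 of 138, 28 of 37 and 59 of 90.

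**Figure D1:**
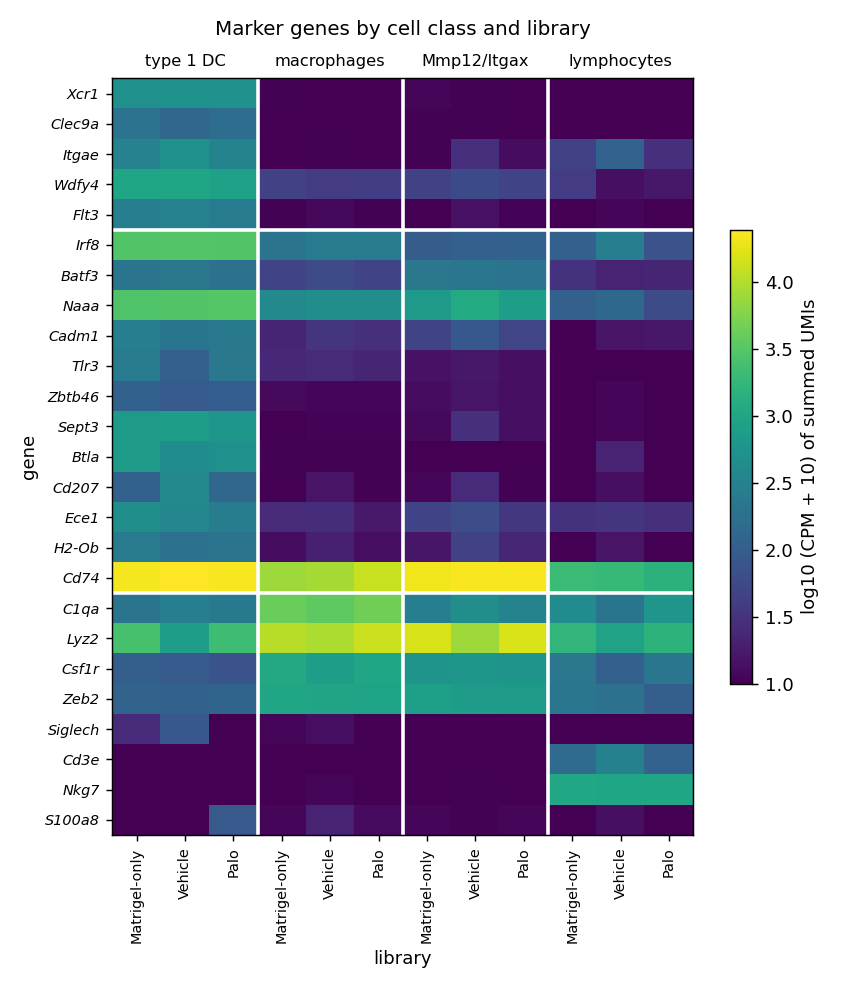
Levels of 25 genes (rows) in 4 classes of cells and 3 libraries (columns), as log10 of CPM + 10 of summed UMIs. White lines set apart the 5 genes of the rule, other genes of dendritic cells and genes of other cell types. The first 3 columns hold the type 1 dendritic cells, where Cd3e and Nkg7 were at 0 and S100a8 in Palo came from 1 cell.

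Type 1 dendritic cells made up a smaller share of the Vehicle library than of the other libraries. They were 1.58% (1.33 to 1.87) of cells in Matrigel-only, 0.675% (0.476 to 0.930) in Vehicle and 1.23% (0.993 to 1.51) in Palo. The interval of Vehicle lay below both others, and the intervals of Matrigel-only and Palo overlapped. Among non-stromal cells the shares were 2.08% (1.75 to 2.45), 0.901% (0.635 to 1.24) and 1.47% (1.19 to 1.81), where the intervals of Vehicle and Palo overlapped. The order was the same when cells were thinned to 1500 UMIs before the rule was applied (1.11%, 0.453% and 0.729%). This left out 1132, 758 and 333 cells of Matrigel-only, Vehicle and Palo that were too shallow. No interval was formed for the thinned shares, so whether Vehicle and Palo stay apart there was not tested. Leaving out the mixed cells gave the same order (1.46%, 0.511% and 1.06%). Lymphocytes, defined by at least 2 of 7 T and NK genes, had another order, with 72, 258 and 54 cells. Per 100 lymphocytes there were thus 192, 14.3 and 167 type 1 dendritic cells in Matrigel-only, Vehicle and Palo. A share is relative to all other cells of a library, so fewer type 1 dendritic cells and more of the others cannot be told apart.

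**Figure D2:**
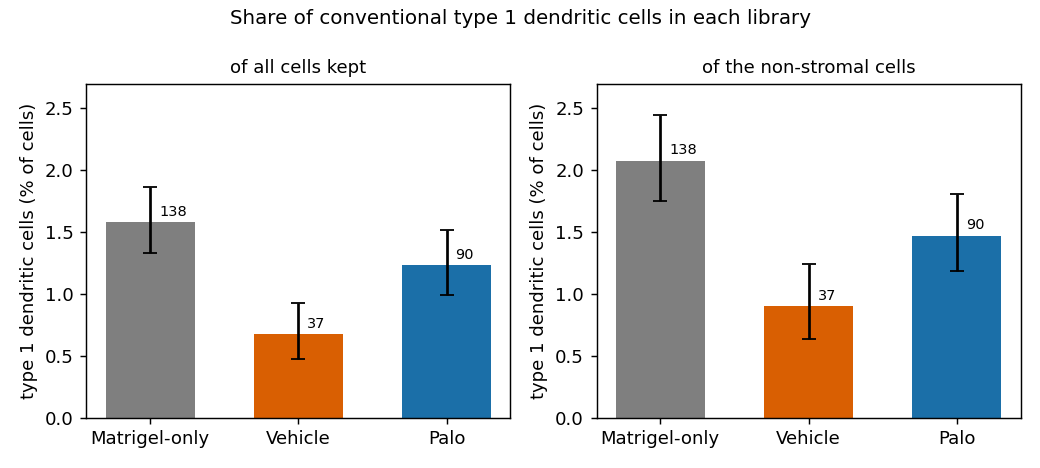
Share of type 1 dendritic cells (vertical axis, % of cells) in the 3 libraries, among all cells kept (left) and among non-stromal cells (right). Bars are shares, lines are exact 95% intervals for counting error and the figures beside them are cells. Vehicle is lowest in both panels, at 0.675% and 0.901%.

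The genes that set these cells apart from the other non-stromal cells were ranked by a rule that asks for a high ratio in all 3 libraries. Since the cells were also chosen on 5 of their genes, this is a description with no test. By the smallest of the 3 ratios the 20 leading genes outside the rule included Sept3, Btla, Irf8, Gcsam, Cd207, A530099J19Rik, Cd24a, Zfp366, Ece1, Fam149a, Tbc1d8, Plekha5, Snx22, Dbn1, H2-Ob, Tlr11, Ifi205, Rnase6 and AC163354.1. Sept3, which encodes a septin of the cytoskeleton, stood at 684, 763 and 597 CPM in Matrigel-only, Vehicle and Palo, and at 2.72, 6.44 and 2.65 CPM in the other cells. Btla, an inhibitory receptor of the immunoglobulin family, was at 688, 429 and 488 CPM against 1.52, 3.25 and 0.917. Tlr11, a receptor for microbial profilin, was at 77.5, 72.7 and 72.7 CPM against 0.369, 0.674 and 0.952. H2-Ob, a chain of the class II regulator H2-O, was at 244, 182 and 192 CPM against 5.95, 15.1 and 6.74. At the other end stood genes of macrophages, with Ctsd, a lysosomal protease, at 158, 83.6 and 147 CPM against 1738, 1120 and 1564 CPM in the other cells. C1qa, a complement component, was at 190, 283 and 228 CPM against 3006, 2239 and 3114, and 6 cells supplied all 78 of its UMIs in Vehicle.

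The rule genes are described without a test, since the cells had to show them. Xcr1 was at 490 CPM (436 to 549) in Matrigel-only, 520 (438 to 612) in Vehicle and 539 (476 to 607) in Palo, and its intervals overlapped. Xcr1 UMIs were seen in 122 of 138, 33 of 37 and 81 of 90 cells, a share that the rule itself sets in part. Clec9a, the receptor for exposed actin of dead cells, was at 186, 124 and 157 CPM, with overlapping intervals. Itgae was at 310 CPM (267 to 358) in Matrigel-only, 527 (445 to 620) in Vehicle and 319 (271 to 373) in Palo. Its level in Vehicle lay above both others, and after thinning it was detected in 71.8% of cells there against 54.2% and 56.1%. Itgae helped to choose the cells, and they were chosen before thinning, when those of Vehicle were deeper. No difference between libraries is therefore read from these Itgae values. Flt3 was at 274, 309 and 230 CPM and Wdfy4, needed for cross-presentation of cell-associated antigen, at 966, 992 and 868 CPM. Xcr1 and Clec9a were detected together in 63, 17 and 42 cells.

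Between libraries, ratios were formed as log2 of (CPM + 10), for genes with at least 50 CPM in 1 of the 2 libraries compared, and a gene counts as past the fold at a ratio of 2 or more. A gene that reaches 50 CPM in 1 library alone had to be higher there, so that the filter fixed its direction, and nothing is read from list counts or medians that rest on such genes. With Vehicle over Matrigel-only, 109 of 3362 genes were higher (3.24%) and 117 lower (3.48%). This balance moved to 63 higher and 167 lower without the cell richest in each gene, and to 242 higher and 136 lower with a mean over cells. Leaving out 1 cell takes a larger part of 37 cells than of 138, so the first setting itself lowers Vehicle. The median over all genes was then -0.06. With Palo over Vehicle, 101 of 3361 were higher (3.01%) and 135 lower (4.02%). With Palo over Matrigel-only, 21 of 3215 were higher (0.653%) and 30 lower (0.933%). The median log2 ratios over all these genes were 0.04, -0.06 and -0.03. The smaller counts for Palo over Matrigel-only go with more summed UMIs than in Vehicle, and the part of this depth in the counts was not tested. All 3 comparisons share libraries in pairs, so they are not independent. Of the genes past the fold with Palo over Vehicle, 42.8% were higher, 53.8% with edgeR TMM factors and 54.6% without the mixed cells. Of 20 cDC1 genes outside the rule, 2 were lower in Vehicle than in Matrigel-only (Tlr3 and Mycl), with a list median of -0.22. Both were higher again in Palo than in Vehicle (median 0.07), and none of the 20 was past the fold with Palo over Matrigel-only (median -0.15).

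Plet1, a surface protein of epithelia and of some dendritic cells, had the largest ratio between Vehicle and Matrigel-only. Its UMIs numbered 2 in 1 of 138 cells of Matrigel-only, 81 in 10 of 37 cells of Vehicle and 0 in the 90 cells of Palo. The level in Vehicle was 294 CPM (234 to 366), against 3.30 (0.399 to 11.9) in Matrigel-only and 0 in Palo, where the exact interval ends at 7.44 CPM. The interval of the log2 count ratio of Vehicle over Matrigel-only ran from 4.58 to 9.55. The cell with the most Plet1 held 24 of the 81 UMIs. All 10 cells with Plet1 also held Gnb4 and Lgals3, against 15 and 22 of the other 27. The rule genes Xcr1 and Itgae were likewise in all 10, against 23 and 22 of the 27. These cells were not matched in depth, and the part of depth in such shares was not tested. None of the 10 held Klf4, against 11 of the 27, and 3 of the 10 held Ccr2, against 14 of 27. Among the other classes of Vehicle, cells with both Mmp12 and Itgax (a macrophage protease and an integrin of dendritic cells and macrophages) held Plet1 in 37 of 225, with 676 UMIs, whereas 3 of 2461 macrophages had it. In Palo no cell of the 685 with Mmp12 and Itgax had a Plet1 UMI, and in Matrigel-only 2 of 317 did. The Plet1 gene lies at chr9:50494525-50505482.

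Other genes were higher in Vehicle beside Plet1. Gnb4, a G protein beta subunit, was at 44.5, 258 and 56.5 CPM in Matrigel-only, Vehicle and Palo, in 23 of 138, 25 of 37 and 22 of 90 cells. Its interval in Vehicle (202 to 325) lay clear of the others, and it was low in macrophages (7.17, 15.7 and 4.10 CPM). Eva1b was at 13.2, 116 and 16.1 CPM, in 8, 13 and 7 cells. Cd207, which encodes langerin, the lectin of Langerhans cells and of a set of tissue cDC1, was at 102, 382 and 123 CPM. The share of cells with Cd207 was closer, 43 of 138, 14 of 37 and 22 of 90, and 1 cell of Vehicle gave 40 of its 105 UMIs. Lgals3, a galectin, was at 249, 945 and 351 CPM and followed the same order in macrophages (309, 1166 and 487 CPM). Ms4a6d (52.8, 174 and 52.5 CPM) was likewise highest in Vehicle in macrophages (382, 817 and 444 CPM). Ndrg1, a gene induced by low oxygen, was at 102, 247 and 60.5 CPM, with 177, 282 and 156 CPM in macrophages. Plac8 (57.7, 214 and 44.4 CPM), Bst2 (120, 291 and 84.8 CPM), Ccl2 (34.6, 102 and 24.2 CPM) and Ctsl (41.2, 134 and 36.3 CPM) rested in part on the mixed cells. Without these, the log2 ratios of Vehicle over Matrigel-only went from 1.73 to 1.10 for Plac8, from 1.21 to 0.29 for Bst2, from 1.32 to -0.02 for Ccl2 and from 1.50 to -0.84 for Ctsl. Ctsl then held 9, 1 and 7 UMIs in Matrigel-only, Vehicle and Palo, and Ccl2 8, 3 and 6, too few to read a direction. Dab2, an endocytic adaptor, was at 148, 298 and 70.6 CPM, and without the mixed cells its log2 ratio of Palo over Vehicle was -1.91. The ratios of Vehicle over Matrigel-only for Plet1, Gnb4, Eva1b, Lgals3 and Cd207 without the mixed cells were 4.84, 2.56, 2.86, 1.70 and 1.97.

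**Figure D3:**
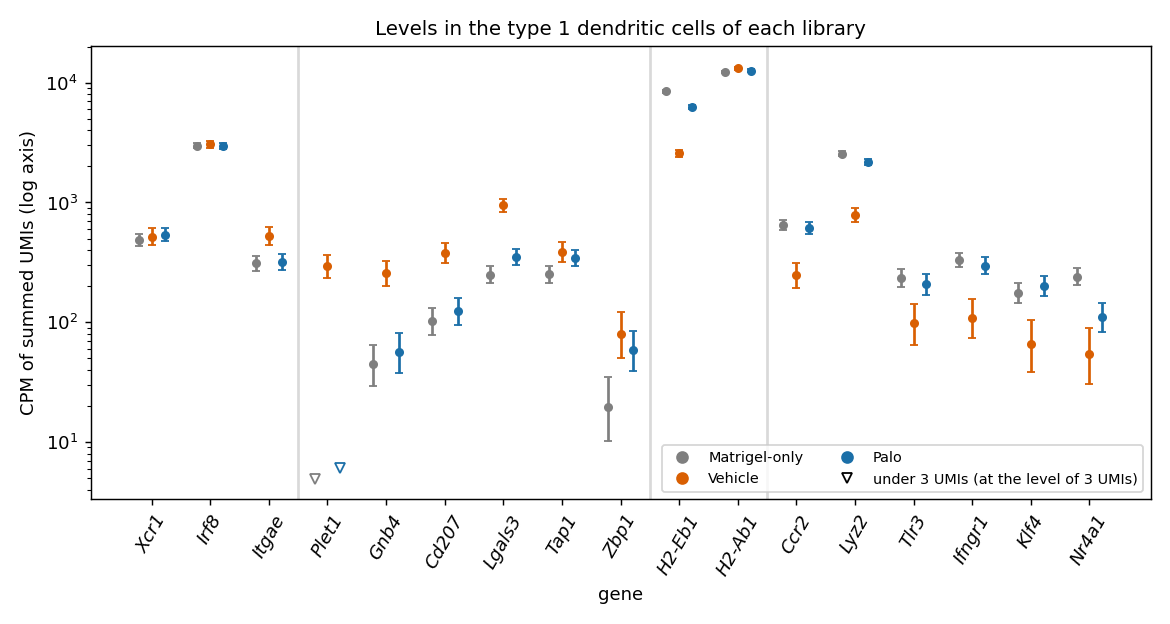
Levels of 17 genes in the type 1 dendritic cells of each library, as CPM of summed UMIs on a log axis. Points are levels, lines are exact Poisson 95% intervals for counting error, and open triangles stand at the level of 3 UMIs where fewer were found. Xcr1 and Irf8 overlap between libraries, Plet1 is above the limit in Vehicle alone, and Ccr2, Lyz2, Ifngr1 and Klf4 are lowest in Vehicle.

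A set of monocyte-linked and receptor genes was lower in Vehicle than in both other libraries. Ccr2, the receptor that guides monocytes and some dendritic cells into inflamed tissue, was at 651 CPM (589 to 719) in Matrigel-only, 247 (192 to 313) in Vehicle and 618 (550 to 691) in Palo. After thinning it was detected in 76.1%, 32.7% and 71.5% of cells. In macrophages it was at 576, 566 and 911 CPM, so Vehicle and Matrigel-only were close there. Lyz2, lysozyme, was at 2553, 789 and 2188 CPM, against 10573, 9321 and 13248 CPM in macrophages. Klf4, a zinc finger factor, was at 176, 65.4 and 202 CPM. Ifngr1, the ligand-binding chain of the receptor for interferon gamma, was at 331, 109 and 297 CPM, and was close between libraries in macrophages (246, 218 and 257 CPM). Cysltr1, a receptor for leukotrienes, was at 153, 47.2 and 141 CPM, and Fgfr1 at 234, 87.2 and 230 CPM, with the same library lowest in macrophages (127, 40.6 and 80.2 CPM). Usp22, Cdkn2d, Tet2, Syf2 and H2afv were likewise lower in Vehicle than in Palo, with log2 ratios of Palo over Vehicle from 1.32 for Syf2 to 1.53 for Usp22. Sgk1 (267, 87.2 and 178 CPM), Supt5 (120, 36.3 and 82.7 CPM), Trf (178, 58.2 and 98.9 CPM) and Baz2a (120, 40.0 and 101 CPM) had their lowest level in Vehicle and an intermediate one in Palo. Without the mixed cells the log2 ratio of Vehicle over Matrigel-only was -1.39 for Klf4, -1.48 for Ifngr1 and -2.25 for Cysltr1.

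H2-Eb1, the beta chain of the class II molecule I-E (chr17:34305867-34316674), split the Vehicle cells. Its level was 8463, 2566 and 6278 CPM in Matrigel-only, Vehicle and Palo, and it was detected in 138 of 138, 28 of 37 and 90 of 90 cells. Among cells of at least 2000 UMIs, 20 of 35 in Vehicle held under 10 H2-Eb1 UMIs per 10000, 15 held 30 or more and none fell between. In Matrigel-only 1 of 134 was under 10, 4 lay between and 129 held 30 or more. In Palo the same counts were 1, 0 and 86 of 87. These limits were set after the values were seen. The low cells of Vehicle did not lack class II as a whole, since the median of H2-Ab1, the I-A beta chain, was 110 UMIs per 10000 in them and 160 in the high cells. Of the cells with Mmp12 and Itgax in Vehicle, 122 of 218 were under 10, 14 lay between and 82 were at 30 or more. In Matrigel-only 13 of 305 were under 10 and 22 between, and in Palo 17 of 672 were under 10 and 99 between. In macrophages the level was 2763, 835 and 3203 CPM. Other genes were compared between the low and high cells. Plet1 was at 283 CPM in the low cells, where 8 of 20 held it, and at 316 CPM in the high cells, where 2 of 15 held all of it. Gnb4 was at 277 and 237 CPM, Klf4 at 62.9 and 70.2, Ifngr1 at 94.4 and 132, and Itgae at 491 and 562. Ccr2 was at 327 CPM in the low and 132 in the high cells, both below the other libraries, whereas Lgals3 was at 1252 and 465 CPM. Genes of other cell types lay mostly in the low set, with C1qa UMIs in 5 of its 20 cells against 1 of the 15 high cells, and Siglech in 2 against none. Without the mixed cells the log2 ratio of H2-Eb1 for Vehicle over Matrigel-only was -1.55, against -1.72 with them. The mice were outbred and masses were pooled, and whether the split follows single mice was not tested.

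**Figure D4:**
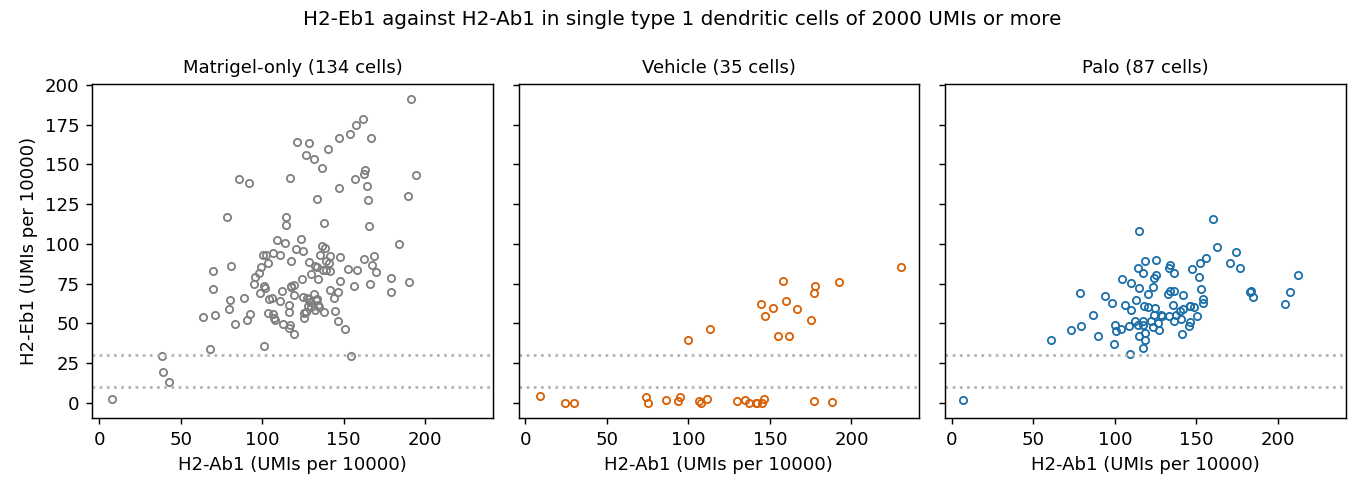
H2-Eb1 (vertical axis) against H2-Ab1 (horizontal axis), both in UMIs per 10000, in single type 1 dendritic cells of at least 2000 UMIs, 1 point per cell. Dotted lines mark 10 and 30 H2-Eb1 UMIs per 10000, and 20 of 35 Vehicle cells lie under the lower one, against 1 of 134 in Matrigel-only and 1 of 87 in Palo.

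Few other genes of antigen presentation were past the fold between libraries with all cells counted. For MHC class II, 13 genes were measured, of which H2-Eb1 alone was lower in Vehicle than in Matrigel-only and none higher (median 0.10). With Palo over Vehicle, H2-Eb1 was higher and Lgmn, a lysosomal protease, lower (median -0.07). Lgmn was at 139, 251 and 94.9 CPM, and 1 cell of Vehicle held 43 of its 69 UMIs there. Without the mixed cells its log2 ratio of Palo over Vehicle was 1.19. That value rests on 14 UMIs of Palo and 2 of Vehicle, both under 50 CPM, so no direction is read from it. With Palo over Matrigel-only none of the 13 was past the fold (median -0.05). Cd74, the invariant chain, stood at 22313, 24569 and 23065 CPM, and H2-Aa, the I-A alpha chain, at 11195, 9253 and 9483 CPM. Ciita, which switches class II genes on, was at 521, 596 and 505 CPM. For MHC class I, which these cells use in cross-presentation, none of 15 genes was past the fold in any comparison, and the medians were 0.38, -0.19 and 0.08. With Vehicle over Matrigel-only 12 of the 15 ratios were above 0, against 1780 of 3362 over all genes. When the mixed cells were left out, 2 of the 15 were lower in Vehicle than in Matrigel-only (median 0.47), against 163 of 3255 genes. These were Rac2 and Cybb, with log2 ratios of -1.57 and -2.26, and 1.49 and 2.23 with Palo over Vehicle. Both were then under 50 CPM in Vehicle, so the filter fixed their direction. Tap1, the peptide transporter, was at 252, 389 and 343 CPM. Psmb8 and Psmb9, subunits of the immunoproteasome, were at 635, 974 and 811 CPM and at 505, 741 and 648 CPM. These 3 genes were lowest in Matrigel-only. In macrophages Psmb8 was at 170, 395 and 231 CPM.

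Among genes tied to the sensing of nucleic acid, Tlr3 and Unc93b1 were lowest in Vehicle. Tlr3, the endosomal receptor for double-stranded RNA that marks these cells, was at 234 CPM (197 to 276) in Matrigel-only, 98.1 (64.7 to 143) in Vehicle and 208 (170 to 252) in Palo. It was detected after thinning in 49.1%, 20.1% and 43.2% of cells, against 3.73%, 4.53% and 3.39% of macrophages. Unc93b1, the chaperone that brings endosomal receptors to their place, was at 539, 273 and 517 CPM, and in macrophages at 916, 581 and 763 CPM. Tlr7 held 2, 1 and 0 UMIs and Tlr9 0, 1 and 2, too few to compare. Of 4 measured genes of Toll-like receptors and adaptors Tlr3 was the one past the fold in Vehicle (median -0.52), and no gene of the list was past the fold with Palo over Matrigel-only.

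Of the 24 listed genes of the interferon response 10 were measured with Vehicle over Matrigel-only, and 5 of these were higher (Cxcl9, Gbp2, Zbp1, Isg15 and Bst2), against 3.24% of all genes. Apart from Bst2, these 5 reached 50 CPM in Vehicle and not in Matrigel-only, so the filter fixed their direction. With no filter 9 of 22 genes were higher and none lower (median 0.62), against 305 and 371 of all 11995 genes. Without the cell richest in each gene 1 of 6 was higher, against 63 of all 3016. With Palo over Vehicle, 4 of 11 were lower, against 4.02% of all genes, and of these Cxcl9 and Gbp2 reached 50 CPM in Vehicle alone, whereas Bst2 was above it in both. With Palo over Matrigel-only Zbp1 was the 1 of 8 that was higher, against 0.653% of all genes, and it reached 50 CPM in Palo alone. Zbp1, a sensor of Z-form nucleic acid, was at 19.8, 80.0 and 58.5 CPM, in 12 of 138, 14 of 37 and 19 of 90 cells. Gbp2, a guanylate-binding protein induced by interferon gamma, was at 11.5, 65.4 and 14.1 CPM. Ifi35 was at 61.0, 204 and 103 CPM. In macrophages Gbp2 stood at 44.7, 256 and 49.9 CPM, with Vehicle highest as well. Cxcl9, a chemokine for activated T cells, came from 3 cells of Vehicle, and 1 of them held 27 of its 32 UMIs. Without the mixed cells the log2 ratio of Bst2 was 0.29. With Palo over Vehicle 2 of 10 genes were then lower, against 129 of all 3246. Ifng itself, the gene of interferon gamma, was found almost only in lymphocytes, with 17 UMIs in Matrigel-only, 164 of 170 in Vehicle and 25 of 27 in Palo, and at 0 in the type 1 dendritic cells.

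Several chemokines rested on few cells. With all cells, 5 of 8 measured chemokines were higher in Vehicle than in Matrigel-only (Cxcl9, Ccl7, Ccl8, Ccl2 and Ccl12), against 3.24% of all genes. Of these Ccl8 alone reached 50 CPM in both libraries, and the filter fixed the direction of the other 4. Leaving out the mixed cells, 4 were measured, 2 of them higher and 2 lower, against 110 and 163 of 3255 genes. Ccl8 held 271 UMIs in Vehicle, of which 1 cell gave 182. In Palo, 1 cell gave 38 of the 39 UMIs of Ccl5. Of 16 macrophage and monocyte genes 4 were higher in Vehicle than in Matrigel-only, against 3.24% of all genes, among them Fcgr1, Ms4a7 and Mrc1. Another 3 were lower (Lyz2, Ccr2 and Cd14), against 3.48% of all genes. Of those named, Mrc1, Lyz2 and Ccr2 reached 50 CPM in both libraries. For Mrc1, 1 cell of Vehicle held 57 of 132 UMIs. Without the mixed cells Mrc1 was at 69.7, 9.51 and 34.5 CPM, on 38, 2 and 14 UMIs. Its log2 ratio of Vehicle over Matrigel-only was then -2.03. It reached 50 CPM in Matrigel-only alone, so the filter fixed this direction, and nothing is read from it. The mixed cells were chosen on other genes of the same list, so no level, count or median of the list without them is read. Of the plasmacytoid genes 4 of 5 were higher in Vehicle (Cox6a2, Klk1, Siglech and Bst2), against 3.24% of all genes. Bst2 alone of them reached 50 CPM in both libraries, and the filter fixed the direction of the others. Without the mixed cells, which were chosen in part on genes of this list, Cox6a2, Klk1 and Siglech had 0 UMIs in Vehicle, and Bst2 was at 99.0, 124 and 81.4 CPM. Among cDC2 genes, which mark the other conventional dendritic cell, Mgl2 was higher in Vehicle (52.8, 349 and 50.5 CPM), where 1 cell gave 62 of 96 UMIs, and Klf4 and Clec12a were lower (median -0.13 over 8 genes). All 3 reached 50 CPM in both libraries.

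**Figure D5:**
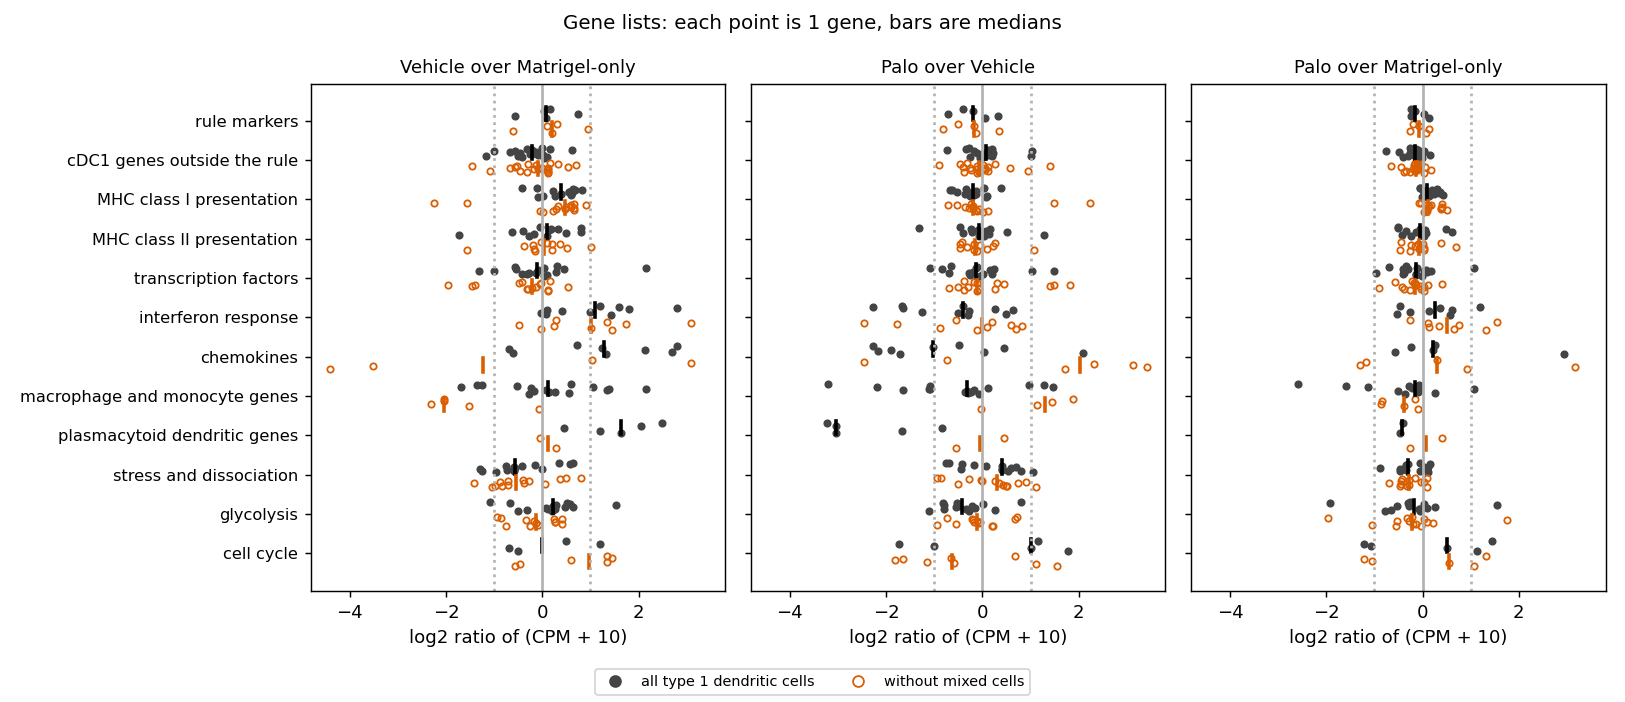
Log2 ratios of (CPM + 10) for 12 gene lists in the 3 comparisons, 1 point per measured gene. Filled points and black bars (medians) are all type 1 dendritic cells, open points and orange bars leave out the mixed cells, and dotted lines mark a 2-fold ratio. The points of a list differ between the settings, since other genes are then measured (8 and 4 chemokines in the left panel), and the bars of the rule markers lie between -0.19 and 0.21.

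Some immediate early genes were higher in Matrigel-only than in both other libraries, whereas Fos (694, 353 and 747 CPM) was lower in Vehicle than in both others. Nr4a1, an orphan nuclear receptor induced within minutes of a signal, was at 241 CPM (203 to 283) in Matrigel-only, 54.5 (30.5 to 89.9) in Vehicle and 111 (83.6 to 144) in Palo. Its relative Nr4a2 was at 127, 36.3 and 42.4 CPM. Both were past the fold in Vehicle and in Palo against Matrigel-only, and Nr4a1 was at 60.9, 27.8 and 51.7 CPM in macrophages. Enzymatic digestion can induce the listed stress and dissociation genes. Of 14 of them, 2 were lower in Vehicle than in Matrigel-only, against 3.48% of all genes. These were Egr1 and Fosb (list median -0.57), none was higher, and Egr1 reached 50 CPM in Matrigel-only alone of that pair. With Palo over Vehicle Fos was higher (median 0.41), and with Palo over Matrigel-only none of 13 was past the fold (median -0.31). Egr1 was at 112, 40.0 and 56.5 CPM, and in macrophages at 111, 44.4 and 73.1 CPM. The part of tissue handling in these values was not tested.

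Fewer genes were past the fold between Palo and Matrigel-only, and 6 of these 51 were past it in the same direction in macrophages. The same counts were 27 of 226 with Vehicle over Matrigel-only and 39 of 236 with Palo over Vehicle. They are given without the share of all genes past the fold in macrophages, so nothing is read from them. Ubb, a ubiquitin precursor, was at 239, 283 and 694 CPM in Matrigel-only, Vehicle and Palo, and in macrophages at 181, 224 and 584 CPM. Gm10260 was at 29.7, 72.7 and 109 CPM, and in macrophages at 16.8, 47.6 and 95.9 CPM. Rpl35, a ribosomal protein (429, 636 and 846 CPM), and AY036118 (186, 124 and 361 CPM) had log2 ratios of 0.96 and 0.92. Gm10260 and AY036118 have near copies or repeats elsewhere, so their counts are uncertain. Mndal was at 145, 193 and 301 CPM. Ahr, the aryl hydrocarbon receptor, was at 84.1, 80.0 and 157 CPM, with 48.2, 51.4 and 44.0 CPM in macrophages. Its log2 ratio of Palo over Matrigel-only, 0.83, was under the fold. Wfdc17, Gm26917, Selenos and Timm8b followed with log2 ratios between 0.79 and 0.84. On the lower side Ly6e, a surface protein induced by interferon, was at 485, 625 and 232 CPM, and at 1573, 1322 and 828 CPM in macrophages. Rps27rt (-1.01) and Ifi202b (-1.01) were past the fold as well, the first of them a near copy of another ribosomal gene. Without the mixed cells Ly6e (-0.91) and Rps27rt (-0.95) fell under the fold, whereas Ifi202b (-1.04) stayed past the fold. Tmem8 (-0.99), Bcl6 (-0.96), Snrpg (-0.89), Egr1 (-0.88) and Ece1 (-0.87) were near it. Bcl6, a repressor that these cells need for their development, was at 178, 145 and 86.8 CPM.

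Transcripts tied to the agents of the experiment were sparse. Of 23 retinoid receptors and targets 2 were measured, and neither was past the fold. Rara, the alpha retinoic acid receptor, was at 95.6, 102 and 78.7 CPM. Rarg, the receptor that Palovarotene targets, held 8, 1 and 5 UMIs, and Rarb none. Dhrs3, a retinal reductase induced by retinoic acid, was at 23.1, 43.6 and 44.4 CPM here and at 257, 206 and 319 CPM in macrophages. Of 12 BMP response genes 4 were measured with Vehicle over Matrigel-only and none was past the fold (median -0.39). Id2, which these cells need, was at 2078, 1552 and 1558 CPM, whereas Id1 held 8, 1 and 1 UMIs and Smad6 none. Inhba, the gene of the activin A subunit, held 0, 1 and 0 UMIs. At these depths a difference in genes of so few UMIs was not detectable. Of 14 activin and TGF-beta receptor genes 4 were measured with Vehicle over Matrigel-only and none was past the fold (median -0.18). Smad7, an inhibitor of these receptors, was at 70.9, 80.0 and 62.6 CPM, and in macrophages at 6.92, 34.5 and 13.1 CPM.

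Most UMIs of Xcl1, the ligand of Xcr1, were in lymphocytes. Xcl1 stood at 248 CPM (173 to 345) in the lymphocytes of Matrigel-only, 135 (111 to 163) in those of Vehicle and 361 (274 to 468) in those of Palo. They held 35 of 39, 107 of 134 and 57 of 76 Xcl1 UMIs of all cells kept, and the type 1 dendritic cells held none. Of the rest, 18 UMIs of Vehicle were in macrophages and 15 of Palo in stromal cells. Flt3l, the growth factor for Flt3, was at 70.8, 75.7 and 114 CPM in lymphocytes and at 18.6, 20.5 and 15.0 CPM in macrophages.

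Genes of mature dendritic cells were scarce in the cells chosen. Ccr7 and Il12b had 0 UMIs in all 3 libraries, and no cell held 3 or more of Ccr7, Fscn1, Cacnb3, Ccl22, Socs2, Il4i1, Apol7c and Nudt17. The rule asks for Xcr1 or Clec9a, which had 0 UMIs in the mature cells outside it, so the rule in large part fixed this count. Cells with 3 or more of those genes were present outside the rule, 5, 42 and 10 of them in Matrigel-only, Vehicle and Palo, or 0.0769%, 1.03% and 0.166% of the other non-stromal cells. Among the 42 of Vehicle, Ccl22 was found in 36, Batf3 in 24, Irf8 in 23, Wdfy4 in 11 and Itgae in 5, and Mgl2 and Cd209a, genes of cDC2, in 18 and 14. Which dendritic cell they came from was not tested. None of 7 measured costimulation genes in the type 1 dendritic cells was past the fold with Vehicle over Matrigel-only (median -0.18). Cd86 was at 153, 127 and 117 CPM. Cd274, which encodes PD-L1, was under the 50 CPM filter and highest in Vehicle, at 4.95, 36.3 and 6.05 CPM, in 3, 6 and 3 cells.

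At least 2 of 6 cycle genes were detected in 3 of 138 cells of Matrigel-only (2.17%, 0.451 to 6.22), 2 of 37 of Vehicle (5.41%, 0.661 to 18.2) and 7 of 90 of Palo (7.78%, 3.18 to 15.4), with overlapping intervals. In the other non-stromal cells the shares were 5.83%, 3.81% and 6.82%. The median depth of the cycling type 1 dendritic cells was 7468, 12432 and 11827 UMIs, above that of the type 1 dendritic cells as a whole, and deeper cells show more genes. Mki67, a protein of dividing cells, was at 39.6, 21.8 and 98.9 CPM. Of 15 glycolysis genes Eno1 was higher and Pfkfb3 lower with Vehicle over Matrigel-only (median 0.22), against 3.24% and 3.48% of all genes. Each of the 2 reached 50 CPM in 1 of these libraries alone. With Palo over Vehicle 4 of 18 hypoxia-induced genes were measured, and Ndrg1, Slc2a1 and P4ha1 were lower, against 4.02% of all genes. Slc2a1 and P4ha1 reached 50 CPM in Vehicle alone of the 2 libraries compared, so the filter fixed their direction. When mixed cells were left out 1 of 3 was lower, against 129 of 3246 genes. In macrophages Slc2a1, the glucose transporter, was at 41.4, 112 and 15.9 CPM, the same order as its 42.9, 50.9 and 18.2 CPM here.

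The remaining lists held few measured genes. Among 16 transcription factors (median -0.10) 1 was higher in Vehicle than in Matrigel-only, against 3.24% of all genes. Klf4 and Mycl were lower, against 3.48%. Batf3, which these cells need, was level at 195, 211 and 176 CPM. After leaving out the mixed cells, 3 of 15 factors were lower in Vehicle, against 163 of 3255 genes, and none higher, against 110. Ifngr1 was the one of 10 growth factor receptor genes past the fold in Vehicle (median -0.03), and Ccr2 the one of 5 chemokine receptors (median -0.15). Of 3 measured cytokines Il1b was higher in Vehicle (77.5, 196 and 40.4 CPM; median 0.19), as it was in macrophages (33.3, 178 and 31.4 CPM). None of 5 mature dendritic genes was past the fold (median 0.20), and none of 5 stromal genes (median 0.12). With Palo over Matrigel-only the stromal gene Col3a1 was lower, although the rule capped the stromal share. Of 4 cell cycle genes Mcm3 was higher with Vehicle over Matrigel-only, and with Palo over Vehicle 3 of 5 were higher (Mki67, Stmn1 and Top2a), against 3.01% of all genes, and 2 lower (Mcm6 and Mcm3), against 4.02%. Each of these genes reached 50 CPM in 1 library of the pair alone, so the filter fixed every direction. Cartilage genes gave 0, 9 and 2 UMIs, and basophil and mast cell genes 1, 0 and 2. In the neutrophil list S100a8 and S100a9 alone were measured, both from Palo. Of the 11 genes in the list of ligands, Ccl5 was the one measured within these cells.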

How the data were processed

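Droplet single-cell RNA-seq (10x) was read from 3 libraries, 1 per condition, each from dispase-digested masses that were pooled. The deposited matrices hold raw UMI counts per gene and barcode, which the authors made on mm10. The submitters' processing notes name Cell Ranger 3.0.2 and Seurat 3 with no roles. Library totals were 44252421, 46317250 and 46901673 UMIs for Matrigel-only, Vehicle and Palo.

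UMIs were summed over the chosen cells of a library and scaled to CPM (Python 3.11.15, NumPy 2.4.6, SciPy 1.17.1, pandas 2.3.3, scanpy 1.11.5). With 1 library per condition no test across genes was possible, and intervals cover counting error only. Ratios used log2 of (CPM + 10) for genes of at least 50 CPM in 1 of the 2 libraries. Shares of cells were also taken after thinning to 2900 UMIs, which left out 11, 2 and 9 of the chosen cells in Matrigel-only, Vehicle and Palo. Doublets were kept, and Scrublet calls (609, 240 and 426 cells, of which 13, 2 and 9 were chosen cells) were left out as an alternative. The named genes were, for each pair of libraries, the 10 with the largest and the 10 with the smallest ratio among genes of at least 100 CPM where higher, without stromal genes and without genes under 20% of their level in another class, together with the 20 leading genes, the rule markers and list genes behind a count. Gene symbols were taken from the files. Alternatives covered the pseudocount, the filter, edgeR 4.0.16 TMM and DESeq2 1.42.0 size factors (R 4.3.3) used for scaling only, the rule and the cells left out. The ratios were checked on simulated counts. The cells and the 30 lists were chosen with earlier results of these data known, the limits of the H2-Eb1 sets, the mixed cells and the searched motifs after values were seen. Macrophages were cells with genes such as C1qa and Adgre1, and classes were not clustered. A few genes that these rules select are not reported here.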

Additional observations from a re-analysis of the deposited data

Results flagged for a closer look

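A few genes had ratios of opposite direction in the type 1 dendritic cells and in the macrophages of the same libraries, and for none of them was the difference between the cell types tested. With Vehicle over Matrigel-only the log2 ratio of Gsap was -1.11 in the type 1 dendritic cells and 0.67 in macrophages. Sult1a1, a sulfotransferase, had 1.09 and -1.23, and Lmnb1, a lamin, 1.16 and -0.60. With Palo over Vehicle Sult1a1 had -1.12 and 1.0. Cblb, a ubiquitin ligase that restrains T cell signals, had 1.27 in the type 1 dendritic cells (33 UMIs in 25 cells of Palo, 6 in 6 of Vehicle) and -0.73 in macrophages. AW112010 had 1.25 (41 UMIs in 27 cells of Palo, 8 in 4 of Vehicle) and -2.02, and Ifi209, of the interferon-inducible p200 family, 1.03 and -0.81. S100a8 had 3.15 and -0.74, with all 39 UMIs of Palo in 1 cell. Lpl, lipoprotein lipase, had -1.003 with Palo over Vehicle, where 1 cell held all 15 UMIs of Vehicle, and -1.52 with Palo over Matrigel-only, where 1 cell held 26 of the 50 UMIs of Matrigel-only, against 1.43 and 0.73 in macrophages.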

How the results depend on the processing

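No paired analysis was possible because each condition was 1 library. The share of type 1 dendritic cells was lowest in Vehicle under every alternative run. It was 1.11%, 0.453% and 0.729% in Matrigel-only, Vehicle and Palo with cells thinned to 1500 UMIs and those of fewer left out. With at least 2 UMIs of Xcr1 and Clec9a it was 1.27% in Matrigel-only. Counts of genes past the fold followed the filter and the pseudocount, and are given as higher and lower with Vehicle over Matrigel-only, then Palo over Vehicle, then Palo over Matrigel-only. They were 223, 257, 267, 294, 70 and 96 with a filter of 20 CPM, 51, 46, 34, 61, 5 and 11 with 100 CPM, 305, 371, 423, 443, 97 and 146 with none, and 25, 19, 16, 39, 5 and 4 with a pseudocount of 50 CPM. With a pseudocount of 1 CPM, 164 were higher in the first comparison, and 41 higher and 52 lower in the last. With a mean over cells 242 were higher in the first, 273 lower in the second and 35 higher in the last. With called doublets left out 33 were higher in the last. Without the mixed cells (chosen after seeing the data) 155 were higher in the second. Without the cell richest in each gene (also chosen after seeing the data) 63 were higher in the first and 86 lower in the second.

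Some list medians of at least 0.25 in size changed sign, and sign changes of smaller medians are not listed. With the 20 CPM filter they were -0.0168 for hypoxia-induced genes (Vehicle over Matrigel-only), and 0.24 for cytokines and -0.17 for chemokine receptors (Palo over Vehicle). With no filter they were 0.0918 for Toll-like receptors (Vehicle over Matrigel-only), and 0.16 for cDC2 genes, 0.0332 for chemokines and -0.11 for chemokine receptors (Palo over Vehicle). The cDC2 median was 0.16 with 100 CPM and 0.34 without the richest cell. Without the cells that held macrophage UMIs, chemokines had -1.25 with Vehicle over Matrigel-only, and with Palo over Vehicle cDC2 genes had 0.96, macrophage genes 1.32, chemokines 2.03, cell cycle genes -0.56 and Ccl2 0.0511. Without all mixed cells the same values were -1.24, 1.40, 1.29, 2.02, -0.62 and 0.0310. Ctsl became -0.84 (Vehicle over Matrigel-only) and 0.89 (Palo over Vehicle) without the mixed cells, where 1 Ctsl UMI was left in Vehicle. With at least 3 markers per cell the same values were -0.0475 and 0.36. Cxcl9 (Palo over Vehicle) became 0.0109 with doublets left out. Over all alternatives, 725 values of list medians stayed within 0.25 of the reported one and 106 moved further. A further 19 changed sign, counted only where the reported median was at least 0.25 in size. Sign changes of smaller medians lie within the other 2 counts. For named genes 734 values stayed within the counting interval or 0.1 of the reported ratio, 39 moved further and 7 changed sign. Leaving out cells or changing the filter also changed which genes of a list were measured, genes of the macrophage list served to choose the cells left out, and the cause of the shifts was not tested further. The 37 cells of Vehicle limit the depth, where 3 UMIs equal 10.9 CPM.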
